A study of Mus musculus with 9 samples.

Results

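Sterol and fatty acid synthesis is represented here by 31 genes, from acetyl-CoA activation to cholesterol and to unsaturated fatty acids, out of 54532 genes in the deposited table. The members are a list of gene symbols, chosen for their place in these pathways and not by a threshold on any value, and all 31 were found and passed the filter on low counts. They comprise 7 early mevalonate genes, 3 genes that make squalene and lanosterol, 8 genes between lanosterol and cholesterol, 6 regulator and carrier genes, and 7 fatty acid genes. The RNA came from bone marrow neutrophils of wild type C57/B6 mice, held for 12 h at 0.5% fetal bovine serum in every group. One group was cultured alone, another with PyMT-M cells, and another with PyMT-N cells, with 3 libraries in each group. Co-cultured neutrophils were recovered by fluorescence-activated sorting, and the labels name DMEM medium only for the co-cultures and do not say whether neutrophils kept alone were sorted, so sorting, medium and co-culture cannot be told apart against that group. Neither the age and sex of the mice nor the nature of the PyMT-M and PyMT-N cells is stated in the labels. Replicates are called biological in the labels, which do not say whether they came from separate animals, so p-values measure the spread between these libraries.

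Cells build cholesterol and fatty acids from cytosolic acetyl-CoA. The mevalonate route makes isoprenoid units, which are joined into squalene, closed to lanosterol and trimmed to cholesterol, while carboxylation of acetyl-CoA feeds fatty acid synthase, elongases and desaturases. Both routes are transcribed under the sterol regulatory element binding proteins (SREBPs, encoded by Srebf1 and Srebf2), membrane-bound transcription factors that the escort protein SCAP carries to the Golgi for cleavage when sterols are low, and that the INSIG proteins hold back in the endoplasmic reticulum when sterols are plentiful. Neutrophils are short-lived cells that store most of their effector proteins before they leave the marrow.

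The promoters of members were examined because many genes of these pathways are known to share the elements that SREBPs and their partner NF-Y bind. RefSeq windows on GRCm38.p6, from 250 bases before to 50 bases after a start, covered 25 of the 31 members in 33 windows. Fdft1, Fdps, Scd1, Scd2, Sqle and Stard4 had none. The 5 windows printed 5′ to 3′ show the member with the sterol core (Hmgcs1), a pair of members with an E-box (Insig1 and Sc5d), and members with CCAAT boxes that were higher (Fasn) and lower (Mvd) in co-culture. They lie for Hmgcs1 at chr13:119690101-119690400 on the plus strand, Insig1 at chr5:28071162-28071461 on the plus strand, Sc5d at chr9:42264251-42264550 on the minus strand, Fasn at chr11:120824498-120824797 on the minus strand and Mvd at chr8:122443373-122443672 on the minus strand. Capitals mark every match, on either strand, to the sterol regulatory element core TCACNCCAC, to the NF-Y box CCAAT, which reads ATTGG where it lies on the strand opposite to the one printed, and to the E-box CACGTG.
Hmgcs1: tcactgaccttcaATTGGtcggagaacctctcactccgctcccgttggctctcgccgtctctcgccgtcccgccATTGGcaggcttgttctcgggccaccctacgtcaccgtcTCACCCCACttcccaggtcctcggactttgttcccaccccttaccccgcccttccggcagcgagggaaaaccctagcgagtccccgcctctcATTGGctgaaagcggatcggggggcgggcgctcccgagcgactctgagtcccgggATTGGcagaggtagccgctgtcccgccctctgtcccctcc
Insig1: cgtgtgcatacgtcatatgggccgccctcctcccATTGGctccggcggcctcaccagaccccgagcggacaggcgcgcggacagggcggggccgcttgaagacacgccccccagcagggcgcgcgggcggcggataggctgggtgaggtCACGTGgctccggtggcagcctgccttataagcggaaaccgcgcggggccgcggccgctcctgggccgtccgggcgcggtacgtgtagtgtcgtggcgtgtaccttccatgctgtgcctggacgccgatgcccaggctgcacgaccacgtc
Sc5d: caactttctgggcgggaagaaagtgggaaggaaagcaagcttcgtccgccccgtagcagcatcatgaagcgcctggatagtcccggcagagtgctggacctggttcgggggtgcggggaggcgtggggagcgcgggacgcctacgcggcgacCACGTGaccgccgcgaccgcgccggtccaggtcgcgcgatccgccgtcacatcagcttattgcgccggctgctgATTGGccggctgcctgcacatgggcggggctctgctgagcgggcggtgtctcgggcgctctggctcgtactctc
Fasn: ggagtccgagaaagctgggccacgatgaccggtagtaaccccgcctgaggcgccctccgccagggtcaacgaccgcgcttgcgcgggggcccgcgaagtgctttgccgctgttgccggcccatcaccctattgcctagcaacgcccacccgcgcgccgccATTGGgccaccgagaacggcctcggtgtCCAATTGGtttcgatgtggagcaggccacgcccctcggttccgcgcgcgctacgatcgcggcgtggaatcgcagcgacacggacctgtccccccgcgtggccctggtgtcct
Mvd: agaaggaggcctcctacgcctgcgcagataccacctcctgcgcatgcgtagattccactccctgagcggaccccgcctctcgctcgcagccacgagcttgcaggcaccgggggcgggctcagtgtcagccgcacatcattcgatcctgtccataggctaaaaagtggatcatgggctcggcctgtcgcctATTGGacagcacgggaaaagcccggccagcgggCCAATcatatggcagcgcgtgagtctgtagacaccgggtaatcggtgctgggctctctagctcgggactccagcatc
The core TCACNCCAC was found in 1 of 25 members, Hmgcs1, at position -137 from the start, and in 1.44% of the 27025 genes with a window (1.41% of the 8976 tested genes with one). CCAAT was found in 21 of 25 members (84%) in 41.1% of all genes with a window and in 42.8% of those tested. CACGTG was found in 5 of 25 members (20%), namely Dhcr7, Hsd17b7, Insig1, Sc5d and Scap, in 8.09% of all genes with a window and in 12.1% of those tested. Matches to different motifs did not overlap, and the only overlap was between neighbouring CCAAT matches on opposite strands in Fasn. These shares describe letters within 300 bases and not binding.

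Library totals ran from 1641049 to 4524563 counts, and members held 2397 to 22943 counts per library. The third library of neutrophils alone stood apart, with the fewest counts and genes with a count (11814) and with 1.75% of counts in mitochondrial messenger RNA against 0.18% to 0.77% in the other 8. Values of members are normalised CPM, that is counts scaled to a common library size after TMM factors, and comparisons are edgeR quasi-likelihood tests with p-values adjusted over all 12012 genes tested. A member was called higher or lower at an adjusted p under 0.05. Neutrophil markers were abundant in all groups, with the 16 listed genes summing to 36408 ± 6481 CPM of the library total alone, 22476 ± 2578 with PyMT-M cells and 20903 ± 1981 with PyMT-N cells (SD, n = 3). Transcripts of other cell types were present too. The 20 epithelial genes summed to 59.7 to 110.4 CPM over the libraries alone, 137 to 206 with PyMT-M cells and 2572 to 3627 with PyMT-N cells, with 13, 15 and 19 of the 20 having a count. Krt5 was at 0 throughout and Epcam was at 0 alone, with 1.91 CPM in the PyMT-M group and 189 in the PyMT-N group. The 19 mesenchymal genes summed to 182 to 215, 1239 to 1386 and 1666 to 2125 CPM in the same order, with 13, 15 and 14 of 19 having a count and Col3a1 at 0 with PyMT-N cells. The 25 pan-leukocyte genes summed to 23775 to 25667, 10541 to 14359 and 12989 to 15071 CPM. The 8 B cell genes summed to 496 to 1122, 91.8 to 146 and 17.2 to 21.95 CPM. The 10 monocyte and macrophage genes summed to 988 to 1370, 534 to 780 and 651 to 805 CPM. Both of these lists were highest in the third library alone. The part of the epithelial, mesenchymal, B cell and monocyte transcripts in the members' values was not tested, and the epithelial and mesenchymal sums differ between the groups in every comparison. In bulk RNA, fewer cells of a type and less RNA per cell cannot be told apart.

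With PyMT-N cells, 22 of the 31 members were higher than alone and 2 were lower, where 29.4% of all genes tested were higher and 23.6% lower (53.0% in either direction). The members' median log2 fold change was 1.29, against 0.12 over all genes tested. With PyMT-M cells, 14 members were higher than alone and 1 was lower, where 28.1% of all genes were higher and 27.9% lower (56.1% in either direction), and the median was 0.80 against -0.032. Between the co-cultures, 10 members were higher with PyMT-N cells and 4 lower, where 19.1% of all genes were higher and 15.5% lower (34.7% in either direction), and the median was 0.086. The comparisons with neutrophils alone share those 3 libraries. The 3 libraries of a group did not overlap those of the other for 25 members between PyMT-N and alone, where 56.7% of all genes tested did not, for 17 between PyMT-M and alone (57.9% of all genes), and for 20 between the co-cultures (52.9%). Without the third library of neutrophils alone, the counts were 24 higher and 2 lower, 17 higher and 1 lower, and 13 higher and 5 lower, in the order of the comparisons. In the same order, 3907, 3648 and 3009 of the 12575 genes tested there were higher, and 3275, 3857 and 2621 lower.

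**Figure D1:**
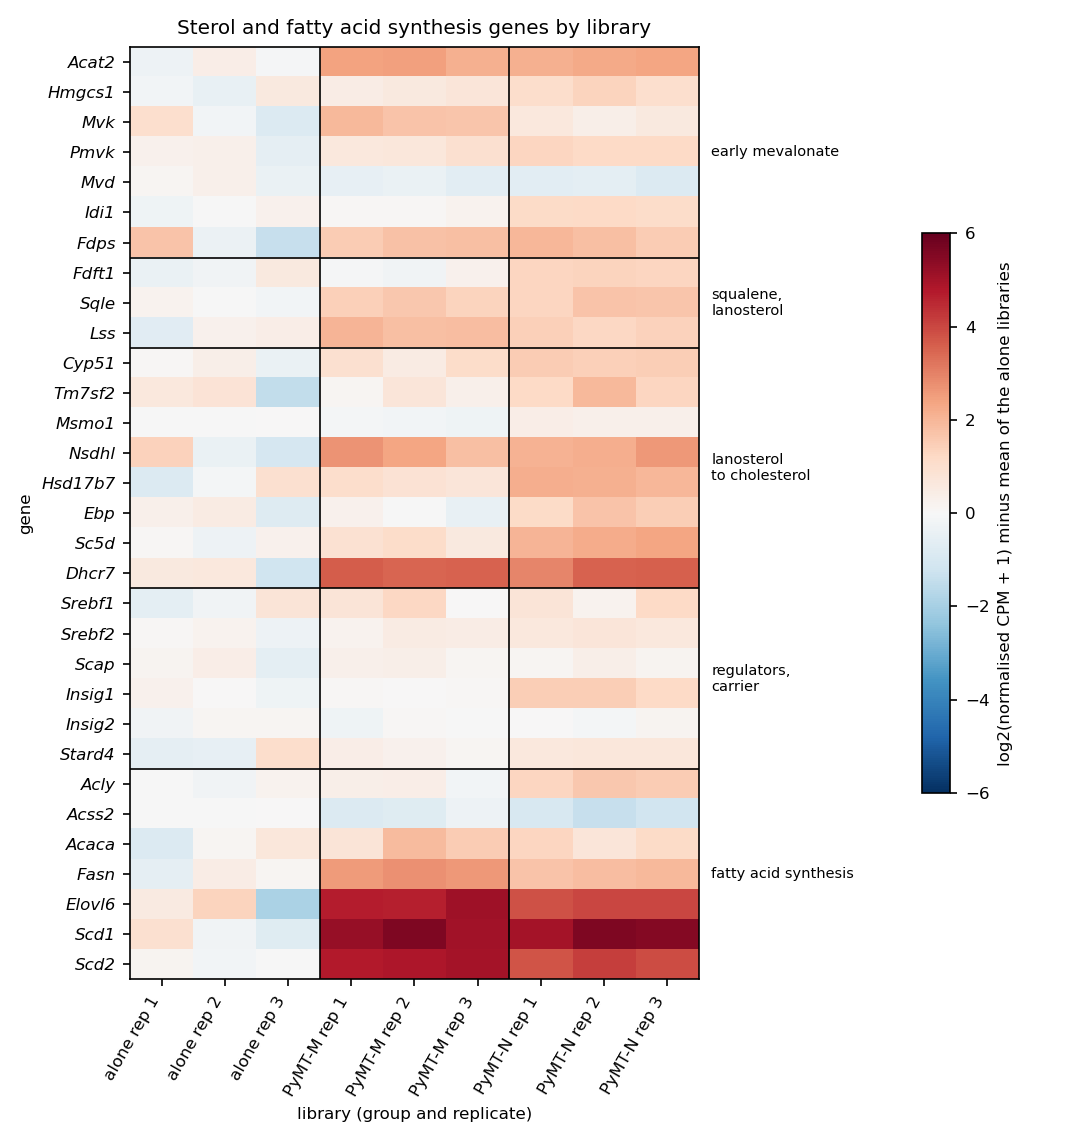
Colour gives, for each of the 31 members (vertical axis, by role) and each of the 9 libraries (horizontal axis), the log2 of normalised CPM + 1 minus the mean of the 3 libraries alone. Scd1, Scd2 and Elovl6 show the deepest shift in all 6 co-culture libraries, while Mvd and Acss2 lie below the mean alone in them.

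The scale matters for direction. Scaling to library totals moved the median of all genes by 0.29 for PyMT-N and 0.47 for PyMT-M against alone, and scaling to 24 pan-leukocyte genes moved it by 1.40 and 1.64. Between the co-cultures the shifts were -0.21 and -0.27. Under those scalings, 26 and 30 members were higher with PyMT-N cells, and 21 and 31 with PyMT-M cells. Of all 12012 genes tested, 4316 and 8033 were higher with PyMT-N cells under them, and 4571 and 8326 with PyMT-M cells. Mvd and Acss2, lower with PyMT-N cells by the main scaling, turned positive under pan-leukocyte scaling, at log2 fold changes of 0.64 and 0.20. Among the 25 members with at least 10 normalised CPM alone, a limit chosen after the data had been seen, 18 were higher and 2 lower with PyMT-N cells, where 18.9% of 7286 genes at that level were higher and 35.4% lower. With PyMT-M cells 9 were higher and 1 lower, where 16.3% of genes at that level were higher and 41.9% lower.

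The fatty acid genes held the largest differences from neutrophils alone among the members. Of these 7 members, 6 were higher and 1 lower with PyMT-N cells, where 29.4% and 23.6% of all genes tested were, and 5 were higher and 2 not called with PyMT-M cells, where 28.1% of all genes were higher. Stearoyl-CoA desaturases place the double bond in newly made saturated fatty acids. Scd1, the isoform known from liver and fat, had 7.10, 2.603 and 1.501 CPM in the libraries alone, from counts of 16, 7 and 2. It had 153, 199.8 and 135 CPM with PyMT-M cells and 131, 199 and 188 with PyMT-N cells. The co-culture libraries lay far above those alone and ran through the same range as each other. Scd1 was 43.1-fold higher with PyMT-N cells (log2 fold change 5.43 ± 0.38 SE, adjusted p = 2.49e-08) and 40.7-fold higher with PyMT-M cells (log2 fold change 5.35 ± 0.38 SE, adjusted p = 7.33e-08). The difference between the co-cultures was 0.084 ± 0.23 and was not called (adjusted p = 0.811).

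Scd2, the desaturase isoform prominent in brain and in early life, had 62.6, 48.3 and 54.8 CPM alone, 1496, 1598 and 1788 with PyMT-M cells and 768, 987 and 842 with PyMT-N cells. The 3 groups were fully separated, with the PyMT-M libraries highest. The gene was 29.5-fold higher with PyMT-M cells than alone (adjusted p = 3.32e-10), 15.7-fold higher with PyMT-N cells (adjusted p = 4.71e-10), and 1.88-fold lower with PyMT-N than with PyMT-M cells (log2 fold change -0.91 ± 0.16 SE, adjusted p = 2.95e-04). Elovl6, the elongase that lengthens palmitate, was near its detection limit alone, with 4.44, 8.18 and 0 CPM from counts of 10, 22 and 0. A count of 0 in the third library alone allows up to 2.25 CPM by counting error. Elovl6 had 96.3, 93.2 and 122 CPM with PyMT-M cells and 51.4, 57.8 and 57.8 with PyMT-N cells, so that no library of one group reached those of another. Its log2 fold changes were 4.36 ± 0.39 with PyMT-M cells (adjusted p = 6.55e-07), 3.47 ± 0.41 with PyMT-N cells (adjusted p = 5.40e-06) and -0.90 ± 0.26 between them (adjusted p = 0.0132). That last call was lost without the third PyMT-M library (-0.77, adjusted p = 0.0588) or without the first PyMT-N library (-0.84, adjusted p = 0.0589).

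Fasn, fatty acid synthase, followed that order of groups, with 19.5, 39.4 and 31.5 CPM alone, 173, 199.6 and 182 with PyMT-M cells and 97.4, 106 and 114 with PyMT-N cells. It was 6.10-fold and 3.49-fold higher than alone (adjusted p = 9.67e-07 and adjusted p = 2.26e-05) and 1.75-fold lower with PyMT-N than with PyMT-M cells (adjusted p = 0.00659). Acaca, the carboxylase that commits acetyl-CoA to fatty acids, had 4.88, 10.4 and 15.8 CPM alone, 16.9, 38.0 and 28.6 with PyMT-M cells and 24.6, 16.4 and 21.8 with PyMT-N cells. Its libraries were scattered within each group, with all co-culture libraries above those alone, and both differences from alone were called (1.53 ± 0.43, adjusted p = 0.0072, and 1.11 ± 0.45, adjusted p = 0.0479). The PyMT-N call was lost without the first library alone (0.76, adjusted p = 0.209), the second library alone (1.19, adjusted p = 0.0958), the third PyMT-M library (1.12, adjusted p = 0.0587), the first PyMT-N library (1.01, adjusted p = 0.112) or the third PyMT-N library (1.09, adjusted p = 0.0967). Acaca shares 29.2% of its exon sequence with Gm5182, which held at most 0.744 CPM in any library.

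Acetyl-CoA for both routes comes from Acly and Acss2. Acly, which splits citrate to cytosolic acetyl-CoA, had 172, 151 and 197 CPM alone and 219, 226 and 151 with PyMT-M cells, ranges that overlapped, and 424, 533 and 505 with PyMT-N cells, above all other libraries. It was 2.83-fold higher with PyMT-N cells than alone (adjusted p = 1.51e-05) and 2.44-fold higher than with PyMT-M cells (adjusted p = 8.20e-05), while PyMT-M against alone was not called (0.21 ± 0.20, adjusted p = 0.375). Acss2 makes acetyl-CoA from acetate instead. It had 31.1, 31.2 and 31.5 CPM alone, 17.5, 18.8 and 24.9 with PyMT-M cells and 15.7, 11.2 and 13.7 with PyMT-N cells, with the libraries alone highest. The gene was 2.30-fold lower with PyMT-N cells (log2 fold change -1.20 ± 0.29 SE, adjusted p = 0.00278), and PyMT-M cells gave -0.63 ± 0.27 (adjusted p = 0.0635), which was not called but was without the third PyMT-M library (-0.76, adjusted p = 0.049). Under pan-leukocyte scaling both values were positive (0.20 and 1.06).

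**Figure D2:**
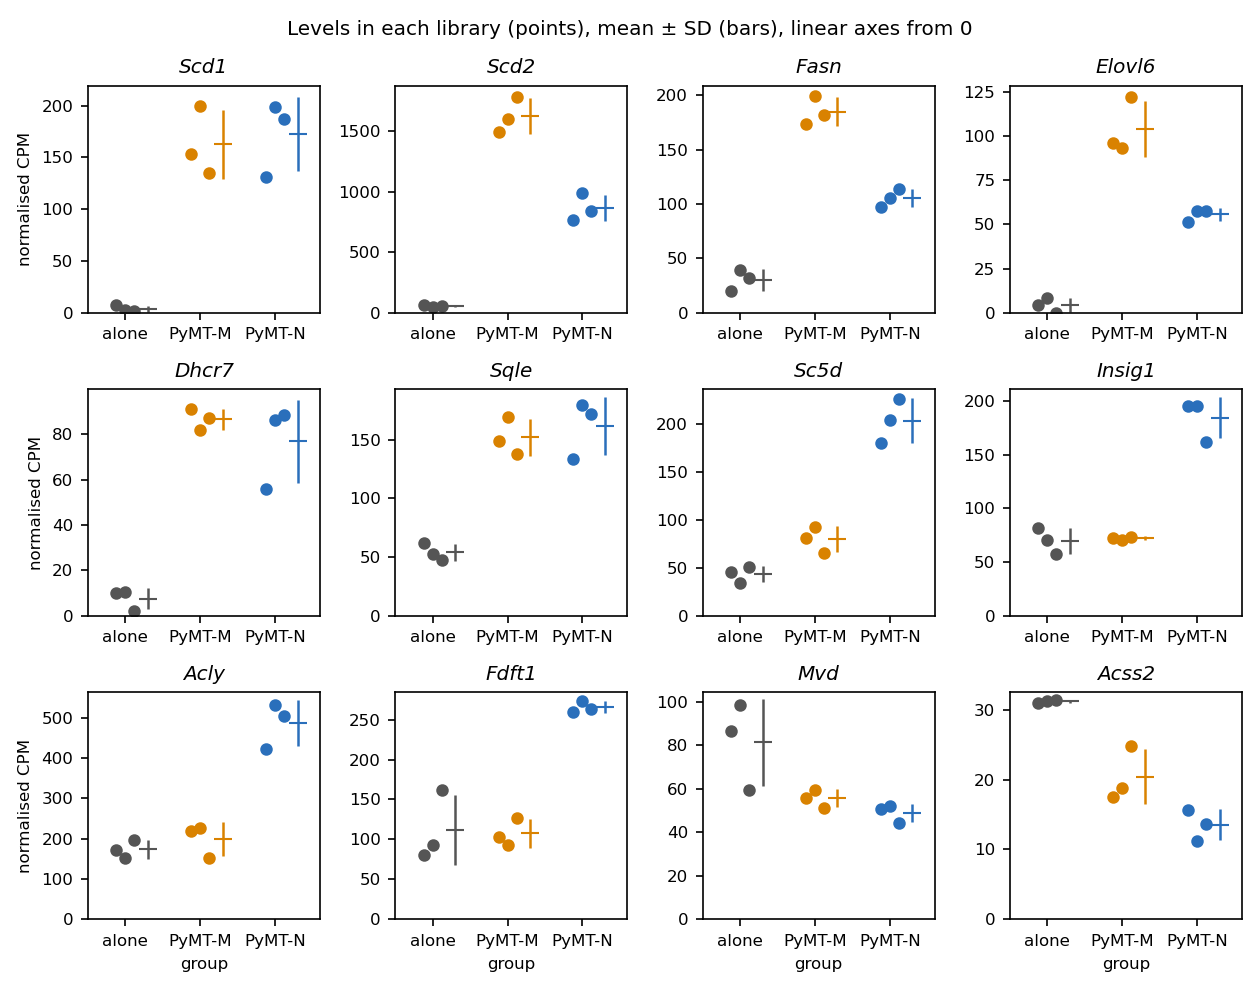
Points give normalised CPM (vertical axes, linear from 0) in each library of the 3 groups (horizontal axes) for 12 members, with mean ± SD beside them. Scd2, Fasn and Elovl6 have their highest libraries with PyMT-M cells, Acly, Insig1, Sc5d and Fdft1 with PyMT-N cells, and Acss2 alone.

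Early mevalonate genes were mixed. Of 7 members, 4 were higher and 1 lower with PyMT-N cells, where 29.4% and 23.6% of all genes tested were, and 3 were higher and 1 lower with PyMT-M cells, where 28.1% and 27.9% were. Acat2, the cytosolic thiolase that joins acetyl-CoA units, had 4.88, 8.55 and 6.003 CPM alone, 38.5, 39.7 and 31.5 with PyMT-M cells and 30.8, 34.5 and 36.6 with PyMT-N cells. Every co-culture library was above those alone. Acat2 was 5.49-fold and 5.10-fold higher (adjusted p = 2.76e-05 and adjusted p = 4.11e-05), and the co-cultures differed by -0.11 ± 0.23 (adjusted p = 0.763). Of its exon sequence, 39.1% is shared in stretches of 50 bases with the near-identical Acat3, so its reads could be split between them, although Acat3 held at most 1.59 CPM in any library.

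Hmgcs1, the HMG-CoA synthase whose promoter held the sterol element core, had 154, 129 and 259.6 CPM alone, 232, 259 and 285 with PyMT-M cells and 362, 436 and 343 with PyMT-N cells. The third library alone was the highest of its group and overlapped the PyMT-M libraries, and PyMT-N libraries were highest. Hmgcs1 was higher with PyMT-N cells than alone (log2 fold change 1.10 ± 0.23 SE, adjusted p = 9.58e-04), and PyMT-M gave 0.54 ± 0.23 (adjusted p = 0.0562), which was called without the third library alone (0.88, adjusted p = 2.11e-04). It was also called under RLE (adjusted p = 0.0433), upper quartile, library total and pan-leukocyte scaling, without a filter and with voom, but not with DESeq2 (adjusted p = 0.0657). The difference between the co-cultures, 0.56 ± 0.22 (adjusted p = 0.0631), was called without the second library alone (0.55, adjusted p = 0.0415) or the third library alone (0.55, adjusted p = 0.0037). The mevalonate kinases did not follow a single pattern. Mvk, which phosphorylates mevalonate first, had 7.99, 2.97 and 1.501 CPM alone, 16.3, 13.5 and 12.98 with PyMT-M cells and 5.997, 4.66 and 5.78 with PyMT-N cells, from counts of 18, 8 and 2 in the libraries alone. It was 3.19-fold higher with PyMT-M cells than alone (adjusted p = 0.00592) and 2.59-fold lower with PyMT-N than with PyMT-M cells (adjusted p = 0.00934), and PyMT-N against alone was not called (0.30 ± 0.54, adjusted p = 0.66).

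Pmvk, the next kinase, had 26.6, 27.9 and 15.01 CPM alone, 34.9, 37.0 and 44.2 with PyMT-M cells and 55.7, 52.3 and 52.0 with PyMT-N cells. The groups did not overlap, and Pmvk was higher with PyMT-N cells (log2 fold change 1.14 ± 0.27 SE, adjusted p = 0.00216). With PyMT-M cells it was at the threshold (0.67 ± 0.27, adjusted p = 0.0445) and that call was lost when any single library was left out (0.50 to 0.82, adjusted p from 0.0519 to 0.116). PyMT-N against PyMT-M, 0.47 ± 0.23 (adjusted p = 0.134), was called without the third library alone (0.47, adjusted p = 0.047). Mvd, the decarboxylase that yields isopentenyl diphosphate, ran the other way, with 86.5, 98.5 and 59.3 CPM alone, 55.8, 59.6 and 51.4 with PyMT-M cells and 50.5, 52.1 and 44.1 with PyMT-N cells. The third library alone, at the foot of its group, lay just under the highest PyMT-M library and above all PyMT-N libraries. Mvd was 1.70-fold lower with PyMT-N cells (log2 fold change -0.77 ± 0.23 SE, adjusted p = 0.011) and 1.49-fold lower with PyMT-M cells (adjusted p = 0.0409). The first call was lost without the second library alone (-0.60, adjusted p = 0.0712) or the third PyMT-N library (-0.67, adjusted p = 0.0584) and under library totals (-0.48). The PyMT-M call was lost when any library but the third alone was left out (-0.61 to -0.41, adjusted p up to 0.204), and without that library it stayed (-0.73, adjusted p = 0.00299).

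Idi1, the isomerase that balances the isoprenoid units, separated the co-cultures. It had 13.3, 16.0 and 19.5 CPM alone and 16.7, 17.1 and 18.8 with PyMT-M cells, which overlapped, and 36.3, 37.8 and 35.1 with PyMT-N cells, above both. It was 2.29-fold higher with PyMT-N cells than alone (adjusted p = 0.00219) and 2.08-fold higher than with PyMT-M cells (adjusted p = 0.00305). Fdps, which builds farnesyl diphosphate, had 13.8, 2.603 and 0.750 CPM alone, and 12.0 to 16.8 CPM in the co-culture libraries. The first library alone lay at the co-culture level while the other two were far under it, and neither comparison was called (1.22 ± 0.53, adjusted p = 0.0632, and 1.15 ± 0.53, adjusted p = 0.0752). Without that library both were, at 2.86 and 2.78 (adjusted p = 0.0018 and adjusted p = 0.0022). Gm43738, a gene model that overlaps Fdps and shares 23.4% of its sequence, had counts in a single library, and Gm13502, which shares 17.7% of the sequence of Idi1, held at most 1.43 CPM.

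Squalene and lanosterol are made by 3 members, all called higher with PyMT-N cells, where 29.4% of all genes were. Sqle, the epoxidase that oxidises squalene, had 61.7, 52.8 and 47.3 CPM alone, 148, 169 and 138 with PyMT-M cells and 133, 179 and 172 with PyMT-N cells. Both co-cultures lay above the libraries alone and overlapped each other. Sqle was 2.97-fold higher with PyMT-N cells (adjusted p = 1.84e-05) and 2.79-fold higher with PyMT-M cells (adjusted p = 3.54e-05). Lss, the cyclase that forms lanosterol, had 9.32, 18.6 and 21.0 CPM alone, 66.3, 57.0 and 58.5 with PyMT-M cells and 43.1, 38.1 and 42.4 with PyMT-N cells. The 3 groups did not overlap, with PyMT-M libraries highest. Lss was 3.81-fold and 2.59-fold higher than alone (adjusted p = 6.19e-05 and adjusted p = 0.00132), and PyMT-N against PyMT-M, at -0.56 ± 0.24, was not called (adjusted p = 0.0805) but was without the third library alone (-0.56, adjusted p = 0.0247) and under library totals (-0.77).

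Fdft1, squalene synthase, stands at the branch to sterols. It had 79.9, 93.0 and 161 CPM alone, 102, 92.7 and 127 with PyMT-M cells and 259.9, 274 and 264 with PyMT-N cells, and only the PyMT-N libraries stood clear. It was 2.44-fold higher with PyMT-N cells than alone (adjusted p = 3.45e-04) and 2.48-fold higher than with PyMT-M cells (adjusted p = 3.47e-04). 774 bases (18.3%) of its exons overlap those of Ctsb, the cathepsin B gene, on the opposite strand, and whether counting used strand is not stated in the sources. Ctsb had 1081 ± 282 CPM alone, 626 ± 106 with PyMT-M cells and 1659 ± 215 with PyMT-N cells (SD, n = 3), with log2 fold changes of 0.62 for PyMT-N against alone and 1.40 between the co-cultures, so reads of the pair cannot be told apart there.

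From lanosterol to cholesterol, 7 of 8 members were higher with PyMT-N cells and 1 was not called, and 4 were higher with PyMT-M cells and 4 not called, where 29.4% and 28.1% of all genes were higher. Between the co-cultures 6 were higher with PyMT-N cells, where 19.1% of all genes were. Dhcr7, the reductase that finishes cholesterol in the Kandutsch-Russell branch, had 10.2, 10.4 and 2.25 CPM alone, 91.1, 81.9 and 87.1 with PyMT-M cells and 56.0, 86.3 and 88.7 with PyMT-N cells. Its co-culture libraries overlapped each other and lay well above those alone, from 9.11-fold with PyMT-N cells (adjusted p = 2.54e-06) to 10.2-fold with PyMT-M cells (adjusted p = 2.22e-06). The difference between the co-cultures was -0.17 ± 0.24 (adjusted p = 0.639). Sc5d, a desaturase of the sterol ring, had 45.7, 34.6 and 51.0 CPM alone, 81.1, 92.5 and 65.7 with PyMT-M cells and 179.9, 204 and 226 with PyMT-N cells. The groups formed 3 separate steps. Sc5d was 1.86-fold higher with PyMT-M cells (adjusted p = 0.00412), 4.73-fold higher with PyMT-N cells (adjusted p = 1.17e-06) and 2.54-fold higher with PyMT-N than with PyMT-M cells (adjusted p = 9.89e-05).

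Demethylation of lanosterol starts with Cyp51 and continues with Msmo1, Nsdhl and Hsd17b7. Cyp51, the demethylase, had 50.6, 62.8 and 36.0 CPM alone, 95.2, 67.8 and 104 with PyMT-M cells and 142, 133 and 136 with PyMT-N cells, again in steps without overlap. It was higher with PyMT-N cells (log2 fold change 1.42 ± 0.24 SE, adjusted p = 1.58e-04) and with PyMT-M cells (0.80 ± 0.24, adjusted p = 0.0112). The step between the co-cultures (0.62 ± 0.22, adjusted p = 0.037) was lost under library totals (0.42), upper quartile (0.53) and pan-leukocyte scaling (0.35), without a filter (adjusted p = 0.0605), and without the first PyMT-M library (0.67, adjusted p = 0.0743), the second PyMT-M library (0.45, adjusted p = 0.181), the first PyMT-N library (0.60, adjusted p = 0.102), the second PyMT-N library (0.65, adjusted p = 0.0759) or the third PyMT-N library (0.63, adjusted p = 0.094). Nsdhl, a dehydrogenase that removes carbon from the ring, had 44.4, 12.3 and 7.50 CPM alone, 110.0, 89.1 and 60.1 with PyMT-M cells and 73.1, 77.0 and 103 with PyMT-N cells. The libraries alone were scattered but all below the others, and both comparisons with them were called (1.95 ± 0.43, adjusted p = 0.00138, and 1.91 ± 0.43, adjusted p = 0.00167).

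Hsd17b7, the ketoreductase of that complex, had 5.77, 10.04 and 22.5 CPM alone, 23.96, 20.9 and 19.1 with PyMT-M cells and 54.5, 51.8 and 47.3 with PyMT-N cells. The PyMT-M libraries overlapped those alone, while PyMT-N libraries stood above all. It was 4.45-fold higher with PyMT-N cells than alone (adjusted p = 1.29e-04) and 2.39-fold higher than with PyMT-M cells (adjusted p = 0.00273), and PyMT-M against alone was 0.90 ± 0.38 (adjusted p = 0.0569), called without the third library alone (1.41, adjusted p = 0.00202). That comparison was also called under RLE (adjusted p = 0.0399), upper quartile, library total and pan-leukocyte scaling, without a filter and with voom, but not with DESeq2 (adjusted p = 0.063). Ebp, the sterol isomerase also known as emopamil-binding protein, had 20.4, 23.4 and 9.01 CPM alone, 19.7, 16.0 and 11.9 with PyMT-M cells and 38.0, 55.6 and 47.5 with PyMT-N cells. Here too the PyMT-N libraries stood clear of the rest, 2.51-fold above neutrophils alone (adjusted p = 0.00302) and 2.94-fold above PyMT-M (adjusted p = 6.96e-04).

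Tm7sf2, a sterol reductase, and Msmo1, the methylsterol oxidase, showed the smallest contrasts with neutrophils alone of this group. Tm7sf2 had 16.0, 18.6 and 3.002 CPM alone, 10.9, 17.1 and 12.4 with PyMT-M cells and 24.3, 41.9 and 25.5 with PyMT-N cells. Its call for PyMT-N against alone (1.13 ± 0.41, adjusted p = 0.0298) was lost without the first library alone (1.25, adjusted p = 0.051) or the second PyMT-N library (0.86, adjusted p = 0.125), and 12.1% of its exons overlap Vps51 on the same strand. Its call between the co-cultures (1.16 ± 0.36, adjusted p = 0.0203) was lost under library totals (0.95), pan-leukocyte scaling (0.91) and DESeq2 (1.11, adjusted p = 0.0539), and without the first PyMT-M library (1.02, adjusted p = 0.0871), the third PyMT-M library (1.10, adjusted p = 0.0634) or the second PyMT-N library (0.88, adjusted p = 0.117). Msmo1 had 183, 180.0 and 191 CPM alone, 172, 167 and 154 with PyMT-M cells and 244, 228 and 227 with PyMT-N cells, with the PyMT-M libraries lowest and the PyMT-N libraries highest. It was higher with PyMT-N than with PyMT-M cells (0.51 ± 0.16, adjusted p = 0.0214), a call lost under library totals (0.29), upper quartile (0.41) and pan-leukocyte scaling (0.23), without a filter (adjusted p = 0.107), and without the first PyMT-M library (0.54, adjusted p = 0.052), the second PyMT-M library (0.51, adjusted p = 0.0634), the third PyMT-M library (0.46, adjusted p = 0.0759), the first PyMT-N library (0.47, adjusted p = 0.0715) or the third PyMT-N library (0.53, adjusted p = 0.0583). Neither comparison with neutrophils alone was called (0.34 ± 0.16 and -0.17 ± 0.16).

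**Figure D3:**
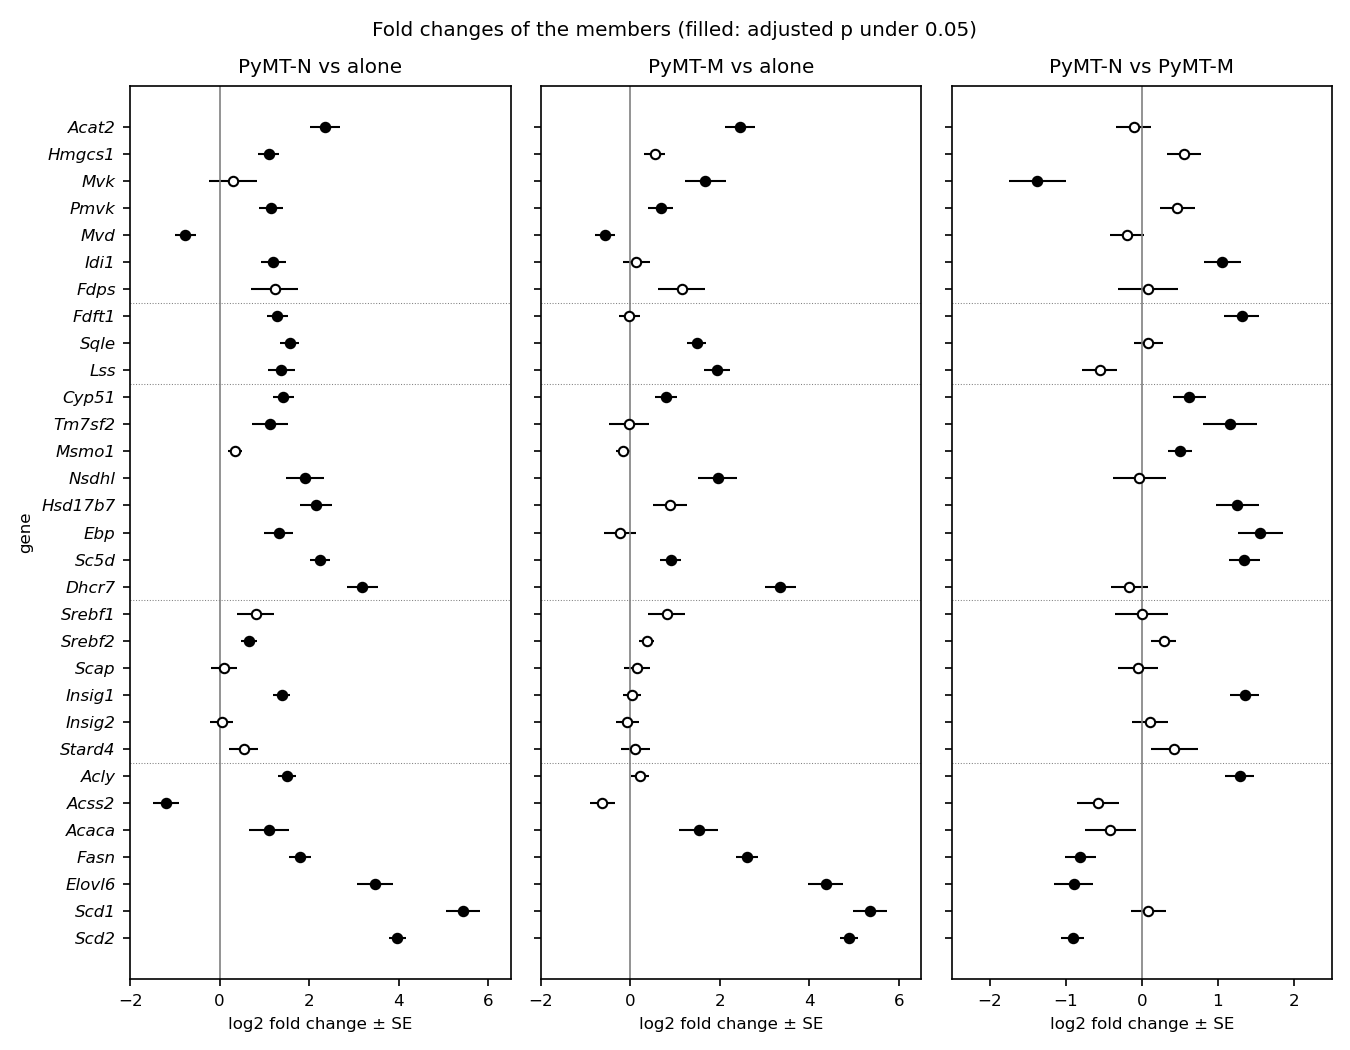
Log2 fold changes ± SE (horizontal axes) of the 31 members (vertical axis, by role, dotted lines between roles) in the 3 comparisons, filled where the adjusted p was under 0.05. With PyMT-N cells 22 members are filled to the right and 2 to the left; between the co-cultures sterol genes such as Ebp and Sc5d lie to the right and Scd2, Elovl6 and Fasn to the left.

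Among the regulators, 2 of 6 members were higher with PyMT-N cells (33.3%, where 29.4% of all genes tested were) and 4 were not called. DESeq2 called 2 and voom 4. Of all 12012 genes tested, DESeq2 called 3710 higher and 2715 lower there, and voom 4016 and 3295. With PyMT-M cells edgeR called 0 of the 6, where 56.1% of all genes were called in either direction. At an unadjusted p under 0.05 there was 1, and DESeq2 called 1 and voom 2. Of all genes, DESeq2 called 3632 higher and 3006 lower there, and voom 3737 and 3803. Insig1, itself an SREBP target that restrains SREBP transport, had 81.7, 70.3 and 57.8 CPM alone, 72.5, 70.3 and 73.9 with PyMT-M cells and 196, 196 and 162 with PyMT-N cells. The first pair of groups overlapped and the PyMT-N libraries lay above all of them. Insig1 was 2.61-fold higher with PyMT-N cells than alone (log2 fold change 1.38 ± 0.20 SE, adjusted p = 3.57e-05) and 2.55-fold higher than with PyMT-M cells (adjusted p = 4.94e-05), and PyMT-M against alone was 0.031 ± 0.20 (adjusted p = 0.909). Its paralogue Insig2, which is not induced by SREBP in the same way, had 23.96, 30.5 and 30.8 CPM alone, 23.7, 29.4 and 27.8 with PyMT-M cells and 28.8, 26.0 and 32.1 with PyMT-N cells. These libraries overlapped fully, with log2 fold changes of 0.042 ± 0.26 and -0.065 ± 0.26 against alone.

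Srebf2, which encodes the SREBP that favours sterol genes, had 286, 309 and 221 CPM alone, 313, 382 and 364 with PyMT-M cells and 425, 450.0 and 416 with PyMT-N cells. The groups did not overlap, and PyMT-N against alone was called (log2 fold change 0.65 ± 0.17 SE, adjusted p = 0.00459), while PyMT-M against alone was not (0.37 ± 0.17, adjusted p = 0.0772). The PyMT-M difference was called under RLE (adjusted p = 0.0215), upper quartile, library total and pan-leukocyte scaling, with DESeq2 (adjusted p = 0.00638) and in a fit of the compared groups. Without a filter, under the stricter filter, with voom and with the replicate block it was not called. Srebf1, which encodes the SREBPs that favour fatty acid genes, was scattered, with 13.3, 17.5 and 35.3 CPM alone, 35.3, 49.8 and 20.9 with PyMT-M cells and 35.4, 23.8 and 47.1 with PyMT-N cells. All 3 groups overlapped, and neither difference from alone was called (0.81 ± 0.42, adjusted p = 0.116, and 0.81 ± 0.41, adjusted p = 0.107). The first was called without the third library alone (1.21, adjusted p = 0.0127), and the second without the third library alone (1.22, adjusted p = 0.0112) or the third PyMT-M library (1.08, adjusted p = 0.0389).

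Scap, the escort of both SREBPs, had 24.9, 29.7 and 14.3 CPM alone, 27.6, 28.3 and 23.8 with PyMT-M cells and 23.99, 28.8 and 24.4 with PyMT-N cells. Its groups overlapped in every comparison, and its differences from alone were 0.094 ± 0.29 with PyMT-N cells and 0.15 ± 0.29 with PyMT-M cells. Stard4, a carrier that moves sterol between membranes, had 63.9, 67.3 and 195 CPM alone, 123, 113 and 102 with PyMT-M cells and 148, 153 and 152 with PyMT-N cells. A single library alone, the third, exceeded all 6 co-culture libraries, and no comparison was called. Without that library Stard4 was higher with PyMT-N cells (1.21, adjusted p = 1.00e-05) and with PyMT-M cells (0.78, adjusted p = 0.00107), and higher with PyMT-N than with PyMT-M cells (0.42, adjusted p = 0.0239).

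Members higher with PyMT-N than with PyMT-M cells were Idi1, Fdft1, Cyp51, Tm7sf2, Msmo1, Hsd17b7, Ebp, Sc5d, Insig1 and Acly, where 19.1% of all genes tested were higher. They were 1 of 7 early mevalonate, 1 of 3 squalene and lanosterol and 6 of 8 lanosterol to cholesterol members. The rest were 1 of 6 regulator and carrier and 1 of 7 fatty acid members. Members lower were Mvk, Fasn, Elovl6 and Scd2, where 15.5% of all genes tested were lower. These were 1 of 7 early mevalonate and 3 of 7 fatty acid members. The median difference was 0.89 over the 8 lanosterol to cholesterol genes and -0.58 over the 7 fatty acid genes, against -0.015 over all genes tested. Under library totals 7 members were higher and 6 lower, where 1834 and 2704 of all 12012 genes tested were. Under pan-leukocyte scaling 7 members were higher and 6 lower, where 1659 and 2747 of all genes were. The higher calls lost under both scalings were those of Cyp51, Tm7sf2 and Msmo1. Sterol genes such as Dhcr7, Sqle, Nsdhl and Acat2 were not called between the co-cultures, with log2 fold changes from -0.17 to 0.086 and SE up to 0.35.

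Summed over members, the fatty acid genes took 256 ± 12.1 CPM of the library total alone, 2749 ± 190.0 with PyMT-M cells and 1758 ± 249.7 with PyMT-N cells (SD, n = 3). Scd2 had the highest count of these 7 members in each co-culture library. The lanosterol to cholesterol genes took 291 ± 27.0, 658 ± 57.1 and 881 ± 70.5 CPM, and the early mevalonate genes 264 ± 27.0, 514 ± 34.7 and 585 ± 62.8. In normalised CPM, the scale of the comparisons, the differences from alone were smaller. The mean sums there were 308, 2326 and 1721 for the fatty acid genes and 350, 557 and 864 for the lanosterol to cholesterol genes. The early mevalonate genes had 318, 435 and 573. The fatty acid sum was thus highest with PyMT-M cells, while the lanosterol to cholesterol sum was highest with PyMT-N cells. Over the same libraries the epithelial sum was 88.8 ± 26.2, 169 ± 34.5 and 3111 ± 528 CPM and the mesenchymal sum 199.6 ± 16.6, 1289 ± 83.9 and 1892 ± 229.8.

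**Figure D4:**
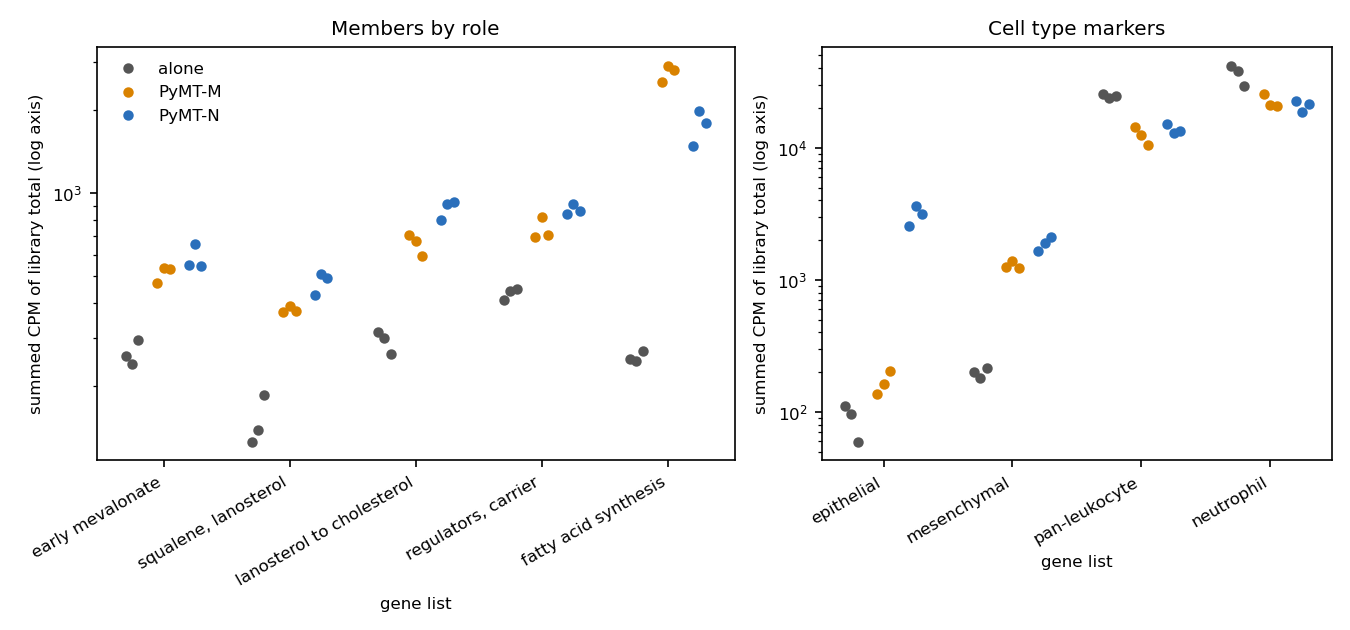
Summed CPM of the library total (vertical axes, log scale) in each library for the 5 role groups of members (left) and for 4 lists of cell type markers (right). All role groups are higher in every co-culture library than alone on this scale, epithelial and mesenchymal markers are higher too, and pan-leukocyte and neutrophil markers are lower.

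Levels of different genes are given here per length of exon, where the length is the union of all annotated exons of a gene. It was 17.1 kb for Acaca and 1.86 kb for Mvd, so the order depends on the annotation too. In CPM per kilobase, neutrophils alone had Mvd (43.8 ± 10.8), Hmgcs1 (39.4 ± 15.1), Srebf2 (37.9 ± 6.40) and Acly (32.8 ± 4.33) at the top, where neighbours in this order differed by less than their SD (n = 3). Acaca (0.606 ± 0.319), Elovl6 (0.654 ± 0.637) and Scd1 (0.763 ± 0.606) were at the foot, also within their spread. With PyMT-M cells Scd2 led at 298 ± 27.1 CPM per kilobase, ahead of Hmgcs1 (56.3 ± 5.73) and Srebf2 (49.1 ± 4.92). With PyMT-N cells Scd2 led again at 158 ± 20.4, followed by Acly (92.3 ± 10.7) and Hmgcs1 (82.8 ± 10.6), which lay within their spread of each other, and by Fdft1 (62.9 ± 1.71), Srebf2 (59.9 ± 2.45) and Insig1 (59.7 ± 6.22). Scd1 thus moved from among the lowest per length alone to 33.2 ± 6.83 and 35.3 ± 7.38 CPM per kilobase in the co-cultures.

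The lists of neighbouring pathways are read against all genes tested, of which 29.4% were higher and 23.6% lower with PyMT-N cells, and 28.1% higher and 27.9% lower with PyMT-M cells. Among 15 other sterol and isoprenoid enzymes, which include prenyltransferases and makers of coenzyme Q and dolichol, 7 were higher and 3 lower with PyMT-N cells, and 7 higher and 2 lower with PyMT-M cells. Of 11 genes for SREBP cleavage and sterol-sensing degradation, 2 were lower and 9 not called with PyMT-N cells, and 3 higher and 2 lower with PyMT-M cells.

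Of 15 genes of oxysterol sensing, sterol export and storage that were tested, 3 were higher and 8 lower with PyMT-N cells, and 2 higher and 9 lower with PyMT-M cells. Of all genes tested, 29.4% and 28.1% were higher and 23.6% and 27.9% lower. Among genes of at least 10 CPM alone, a level to which this list was not limited, 35.4% and 41.9% were lower. At that level 18.9% and 16.3% were higher. Abca1, the exporter that loads lipid onto apolipoproteins, had 0.888, 1.49 and 0 CPM alone, 2.35, 2.47 and 2.91 with PyMT-M cells and 62.5, 62.5 and 57.8 with PyMT-N cells. Its PyMT-N libraries stood far above the rest, with a log2 fold change of 4.56 ± 0.32 between the co-cultures (adjusted p = 8.44e-09). Abcg1, its partner exporter, had means of 15.2, 145 and 186 CPM in the order alone, PyMT-M and PyMT-N, and was higher in both (adjusted p = 2.25e-07 and adjusted p = 3.30e-08). Lipa, the lysosomal lipase that frees cholesterol from esters, had means of 906, 144 and 472 CPM and was lower in both (adjusted p = 1.25e-07 and adjusted p = 6.50e-04).

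Of 22 other fatty acid genes tested, 9 were higher and 6 lower with PyMT-N cells, and 9 higher and 8 lower with PyMT-M cells. The share higher was 40.9% in each, where 29.4% and 28.1% of all genes tested were higher. Of all genes tested, 23.6% and 27.9% were lower. Fads3, a fatty acid desaturase, had means of 4.53, 66.5 and 74.0 CPM and was higher in both co-cultures (adjusted p = 1.93e-06 and adjusted p = 7.30e-07). Acyl-CoA synthetases activate fatty acids for further use. Acsl1 had means of 264, 125 and 37.9 CPM and was lower in both (adjusted p = 2.62e-04 and adjusted p = 5.56e-08), while Acsl4, which prefers arachidonate, had 31.2, 43.3 and 170.2 CPM and was higher with PyMT-N cells (adjusted p = 1.15e-06). Of 18 fatty acid oxidation genes tested, 4 were higher and 5 lower with PyMT-N cells, and 3 higher and 4 lower with PyMT-M cells, near or under the shares of all genes tested (29.4% and 23.6%, 28.1% and 27.9%). Cpt1a, the gate of mitochondrial oxidation, was lower in both, with means of 86.8, 36.9 and 29.8 CPM (adjusted p = 2.91e-04 and adjusted p = 5.38e-05).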

How the data were processed

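RNA was sequenced from 9 libraries, 3 per group, each prepared from 150 pg of total RNA by a QIAseq FX single-cell library kit, as the labels' protocols give. The authors deposited raw read counts per Ensembl gene, whole numbers without normalisation. The submitters' processing notes name STAR as a tool and GRCm38 and mm10 as builds. For the counting step, no tool, annotation or use of strand is given in the sources used here. Symbols (54409 of 54532 identifiers, 123 without), exon lengths and overlaps came from GENCODE M21, and promoters from RefSeq on GRCm38.p6. Per library, 1 CPM stood for 1.64 to 4.52 counts, and the limit that a count of 0 allows, 3 counts, for 0.570 to 2.25 normalised CPM, covering counting error only.

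Counts were filtered with filterByExpr of edgeR 4.0.16 in R 4.3.3 (count minimum 10, total minimum 15), which left 12012 genes, scaled by TMM and fitted together, one mean for each group, with the quasi-likelihood F test, with robust moderation. Benjamini-Hochberg adjustment ran over all genes of a comparison, with a call at 0.05. SE is the log2 fold change over the square root of F. Sums over lists are CPM of the library total. The code was tested on simulated data in which 200 genes were changed. Every gene was given the same spread, estimated over the reference group of each comparison. Of genes changed 2-fold, 0% were called against alone for each co-culture and 64% between the co-cultures. Of those changed 4-fold, 48% with PyMT-N and 40% with PyMT-M cells were called against alone. These shares hold for that simulation and not for the data, where 53.0% and 56.1% of genes were called against alone. Smaller changes were called there, such as Srebf2 with PyMT-N cells at 1.57-fold. A member not called is still not shown to be unchanged. Alternatives were other size factors, filters and thresholds, DESeq2 1.42.0, voom of limma 3.58.1, a fit of the compared groups, the replicate number as a block and leaving out each library. No 2 libraries of a group agreed within sampling noise.

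The members and the lists were chosen with earlier results of these data known. All members are described, and other pathway genes named are a selection among the called genes of smallest p in each direction per list. Some genes of these pathways are not reported here. Proteins were not analysed here.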

Additional observations from a re-analysis of the deposited data

How the results depend on the processing

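The count of members higher with PyMT-N cells kept within 1.5 times of 22 in every alternative fit or threshold, from 20 to 30. The 30 came under pan-leukocyte scaling, where 8033 of 12012 genes tested were higher. The 20 came at an adjusted p under 0.01, where 2696 were. Of the 25 members of at least 10 CPM alone, which are a part of the 31, 18 were higher, where 18.9% of genes at that level were. Members lower with PyMT-N cells numbered 2, and 1 under library totals, 0 under pan-leukocyte scaling, 1 at an adjusted p under 0.01, 1 with a log2 fold change of at least 1 in size, and 1 to 2 with a library left out. In that order 2112, 632, 2096 and 2176 of 12012 genes tested were lower, and 2424 to 3275 with a library left out. Members higher with PyMT-M cells numbered 14, and 31 under pan-leukocyte scaling (8326 of 12012 genes tested were higher there). They numbered 13 to 17 with a library left out, where 2964 to 3648 of all genes tested were higher. The other settings gave from 11 with the fold limit to 21 under library totals, where 3064 and 4571 genes were higher. Of the 25 members of at least 10 CPM alone (chosen after seeing the data), 9 were higher, where 16.3% of genes at that level were. The single member lower with PyMT-M cells, Mvd, gave 0 under RLE, upper quartile, library total or pan-leukocyte scaling, without a filter, with DESeq2, in a fit of the compared groups, with the replicate block, at 0.01 and with the fold limit, 2 members under the stricter filter or voom, and 0 to 1 with a library left out. Of all genes tested, 201 to 3572 were lower with PyMT-M cells in the named settings that gave 0, and 2893 to 3857 with a library left out. Members lower with PyMT-N than with PyMT-M cells numbered 4, and 1 with the fold limit (1338 of 12012 genes tested were lower there). They numbered 3 to 5 with a library left out, where 1314 to 2621 of all genes tested were lower. Of the 25 members of at least 10 CPM alone, 2 were lower, where 972 of 7286 genes at that level were.

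Some log2 fold changes changed sign, by the widest margin under pan-leukocyte scaling. For PyMT-N against alone they were Mvd 0.64 and Acss2 0.20 under pan-leukocyte scaling, Insig2 -0.0084 under the stricter filter and Scap -0.084 with voom. For PyMT-M against alone they were Fdft1 0.064, Tm7sf2 0.089 and Insig2 0.044 under RLE; Fdft1 0.070, Tm7sf2 0.057 and Insig2 0.025 under upper quartile; Fdft1 0.48, Tm7sf2 0.47, Msmo1 0.34, Ebp 0.27 and Insig2 0.44 under library totals. Under pan-leukocyte scaling they were Mvd 1.10, Fdft1 1.67, Tm7sf2 1.64, Msmo1 1.51, Ebp 1.43, Insig2 1.62 and Acss2 1.06. Without a filter they were Fdft1 0.060, Tm7sf2 0.060 and Insig2 0.023, and under the stricter filter Insig1 -0.0065. DESeq2 gave Fdft1 0.035, Tm7sf2 0.19 and Insig2 0.036, voom Fdft1 0.19 and Insig1 -0.055, and the fit of the compared groups Fdft1 0.090, Tm7sf2 0.11 and Insig2 0.059. Between the co-cultures upper quartile gave Fdps -0.017, Sqle -0.011 and Scd1 -0.013, library totals Fdps -0.14, Sqle -0.13, Insig2 -0.11 and Scd1 -0.13, pan-leukocyte scaling Fdps -0.20, Sqle -0.17, Insig2 -0.17 and Scd1 -0.16 and voom Fdps -0.0090, Nsdhl 0.033 and Srebf1 0.055. With a library left out, the ranges that crossed 0 were, for PyMT-M against alone, Ebp -0.45 to 0.022, Fdft1 -0.21 to 0.31, Insig1 -0.063 to 0.16, Insig2 -0.18 to 0.036, Scap -0.031 to 0.38, Stard4 -0.16 to 0.78, Tm7sf2 -0.34 to 0.33. For PyMT-N against alone they were Insig2 -0.069 to 0.13, Scap -0.089 to 0.33, and between the co-cultures Dhcr7 -0.28 to 0.015, Fdps -0.032 to 0.21, Nsdhl -0.24 to 0.17, Scd1 -0.037 to 0.26, Srebf1 -0.27 to 0.33. The cause of these changes was not tested.

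No pairing by replicate number was detected: the correlations of same-numbered libraries ran from -0.0839 to 0.0315. Those of different-numbered libraries ran from -0.0660 to 0.0726. With 3 libraries per group this cannot exclude a pairing. The count columns carry numbers shared across the groups, whose meaning is not stated. With the replicate block, 21 members were higher and 2 lower with PyMT-N cells, 13 and 0 with PyMT-M cells, and 9 and 4 between the co-cultures. Of all 12012 genes tested, 3411 were higher and 2693 lower with PyMT-N cells, and 3272 and 3244 with PyMT-M cells. Between the co-cultures 2227 were higher and 1739 lower. The block gave Tm7sf2 0.018 for PyMT-M against alone and Nsdhl 0.031 between the co-cultures. The block lost 4 calls, Acaca for PyMT-N against alone (adjusted p = 0.0548), Pmvk and Mvd for PyMT-M against alone (adjusted p = 0.0709 and adjusted p = 0.0555) and Cyp51 between the co-cultures (adjusted p = 0.0563). Depth limits members with few counts alone, such as Mvk, Fdps, Scd1 and Elovl6.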
